A study of Mus musculus with 16 samples.

Results

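Growth hormone and STAT5 signalling in the mouse liver was followed through 10 genes, named by symbol and taken as 1 row for each Ensembl gene out of 24082 genes in the table. They are the receptors Ghr and Prlr, the transcription factors Stat5a and Stat5b, the feedback inhibitors Socs2 and Cish, the secreted proteins Igf1 and Igfals, and the sex-biased repressors Bcl6 and Cux2. All 10 passed the filter on low values, a normalized count of at least 10 in at least 4 libraries, which 12537 genes passed. Liver RNA came from 16 adult female C57Bl6/J mice in 4 groups of 4. Pair Vehicle mice were pair-fed a liquid control diet in which maltose dextrin stood in for ethanol, and received vehicle. Pair IMC mice were pair-fed the same way and received iodomethylcholine (IMC), a small molecule that blocks choline TMA lyase, the enzyme by which gut microbes make trimethylamine from choline. EtOH Vehicle mice took a chronic Lieber-DeCarli ethanol diet with vehicle, and EtOH IMC mice took that diet with IMC. The study examined how IMC acts on the liver under each diet. Its text describes a lower food intake and lower body weights in ethanol-fed mice given IMC. A figure legend of the study also marks a difference in body weight between pair-fed mice with and without IMC. An effect of IMC and one of intake or body weight cannot be told apart in these groups. Only female mice were sequenced.

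In the liver, growth hormone from the pituitary binds the receptor encoded by Ghr, the associated kinase JAK2 phosphorylates STAT5 proteins, mainly STAT5B, and these enter the nucleus and switch on genes such as Igf1, Igfals, Socs2 and Cish. SOCS2 and CIS, the product of Cish, damp the receptor's signal in return. In rodents the pituitary secretes growth hormone in pulses in males and more evenly in females, and this pattern, read through STAT5, BCL6 and CUX2, sets much of the sex difference in liver gene expression.

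STAT5 binds DNA at the palindrome TTCNNNGAA, which reads the same on both strands. Promoter sequences from RefSeq (GRCm38.p6; 250 bases before to 50 after each start) were at hand for 9 of the 10 genes, with 18 promoters. The motif was found in 6 of these promoters, which belong to 4 genes, Cish, Bcl6, Igfals and Prlr. Over all 32851 promoters, 8.30% held at least 1 match, 0.457% at least 2 and 0.0335% at least 3. Stretches are printed for Cish, a known STAT5 target, and for Bcl6 and Igfals, the other genes with more than 1 match, with the motif in capitals and the rest in lower case, 5′ to 3′ on the gene's strand.
Cish, chr9:107296654-107296683, plus strand, start of transcription in an annotated exon: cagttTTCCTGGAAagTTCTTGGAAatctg
Bcl6, chr16:23981353-23981461, minus strand, intron: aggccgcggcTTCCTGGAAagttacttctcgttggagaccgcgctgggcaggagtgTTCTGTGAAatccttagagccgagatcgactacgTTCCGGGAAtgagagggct
Bcl6, chr16:23988952-23988980, minus strand, upstream of the annotated gene: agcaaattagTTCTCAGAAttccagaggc
Igfals, chr17:24877598-24877626, plus strand, intron: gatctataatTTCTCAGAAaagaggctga
Igfals, chr17:24878163-24878191, plus strand, intron: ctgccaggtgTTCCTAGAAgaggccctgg
In Cish the matches lie at bases 1 to 9 and 12 to 20 from the start. In Bcl6 the start within the gene has 3 matches, which begin 168, 122 and 88 bases before it. The other Bcl6 start has 1 match, which begins 118 bases before it. In Igfals the matches begin 236 and 58 bases before separate starts. Prlr has 1 match in an intron, at chr15:10223796-10223804, which begins 110 bases before its second listed start. No match lay in the windows of Ghr, Igf1, Stat5a, Stat5b or Cux2. Binding of STAT5 was not measured in these samples, and a match only says that these letters are present.

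**Figure D1:**
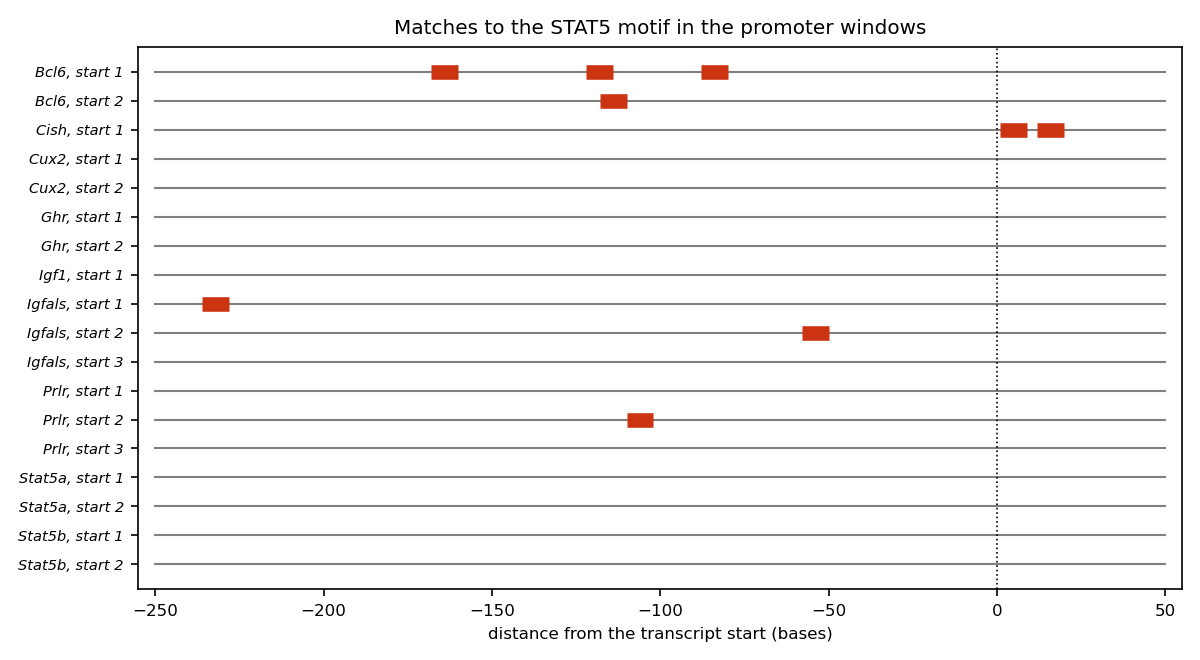
Position of each match to the motif TTCNNNGAA (red bars) in the 18 RefSeq promoters of 9 genes, as the distance in bases from the transcript start (dotted line) along windows of 250 bases before to 50 after it. The 3 bars of Bcl6 at its start within the gene and the 2 adjoining bars of Cish just after its start are the windows with more than 1 match.

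The libraries held between 9632659 and 12601199 reads on genes. Values are normalized counts, that is, reads divided by each library's own size factor, brought to 1 scale over all 16 libraries. Hepatocyte markers dominated, with Alb at 6.74% to 13.04% of reads. The summed level of 6 stellate cell markers was 4069 to 4776 in EtOH Vehicle and at most 3841 in every other library. Library 16 of Pair Vehicle had the highest summed levels of the 6 Kupffer cell markers (5955, against 2051 to 4559 elsewhere) and of the 7 lymphocyte markers (86.6, against 11.9 to 55.7 elsewhere), and the highest Alb share. The 5 bile duct markers summed to 708 to 1209 in Pair Vehicle and 611 to 694 in Pair IMC. The 5 sinusoidal endothelial markers summed to 2166 to 3179 over all libraries. The 6 hepatocyte markers found summed to 1563630 to 1696200 in Pair IMC and 897007 to 1217650 in EtOH IMC, without overlap, and overlapped in the other 3 single comparisons. Of the 6, 0 were called with ethanol in IMC mice by limma, and 2 had an unadjusted p under 0.05. With IMC, 1 of the 6, Hnf4a, was called higher in each diet, where 9.48% of all genes were called in pair-fed and 21.5% in ethanol-fed mice. Of the 6 exocrine pancreas markers, Pnlip, Cpa1 and Amy2a5 had no read in any library. Their sum was 127 to 157 in Pair Vehicle and 68.0 to 126 in every other library, and both tested markers fell with IMC in pair-fed mice, Cela1 with -0.52 ± 0.14 (adjusted p = 0.0274) and Ctrb1 with -3.56 ± 0.96 (adjusted p = 0.0265), and averaged over both diets. In bulk liver, fewer cells of a type and less RNA per cell cannot be told apart. EtOH Vehicle and Pair IMC hold libraries 1 to 8, and Pair Vehicle and EtOH IMC hold libraries 9 to 16, so within a diet IMC is confounded with low against high library numbers. The labels do not say whether these sets were handled apart, and for IMC within a diet, ethanol within a treatment and the difference between diets the sets and the effect cannot be told apart. IMC averaged over both diets is balanced over them.

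IMC lowered members in both diets and raised 1. In pair-fed mice 3 of 10 fell and none rose at an adjusted p under 0.05, namely Cish, Igf1 and Igfals, where 9.48% of all genes tested passed (4.32% higher and 5.17% lower). In ethanol-fed mice 6 of 10 passed, where 21.5% of all genes did (10.4% higher and 11.1% lower). Ghr, Prlr, Stat5a, Igfals and Bcl6 fell and Socs2 rose, and in each of these 6 the vehicle and IMC mice did not overlap, which was so for 25.3% of all genes (12.3% higher and 12.9% lower). Without overlap in pair-fed mice were 3 of 10 genes, Igf1, Igfals and Cux2, all lower with IMC, where 14.3% of all genes did not overlap (7.38% higher and 6.94% lower). The effect of IMC differed between the diets for Prlr and Socs2, 2 of 10, where 1.11% of all genes passed (0.319% higher and 0.79% lower). With 1 library left out, the Prlr call was kept in 5 of 16 fits and the Socs2 call in all 16. Averaged over both diets, Ghr, Prlr, Stat5a, Igf1 and Igfals fell, 5 of 10, where 28.1% of all genes passed (14.1% higher and 14% lower). The median log2 fold change of the 10 genes was -0.40 in pair-fed and -0.56 in ethanol-fed mice, against 0.00 over all genes tested in each diet. The 10 genes were chosen with earlier results of these data known. Their counts and medians, here and for ethanol, are therefore not independent support. The background shares rest on counts that 1 library can move: with 1 left out at a time, the genes called numbered 537 to 1443 for IMC in pair-fed mice (1189 with all) and 54 to 164 for the difference (139). For ethanol they numbered 803 to 1595 in vehicle mice (1488) and 1368 to 2213 in IMC mice (2060).

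Ethanol lowered 2 members in vehicle mice and 3 others in IMC mice. In vehicle mice Socs2 and Cux2 fell, 2 of 10, where 11.9% of all genes passed (6.33% higher and 5.54% lower). The groups did not overlap for Socs2 and Cux2, both lower, and Stat5a, higher, 3 of 10, where 19% of all genes did not overlap (9.92% higher and 9.07% lower). In IMC mice Ghr, Prlr and Bcl6 fell, 3 of 10, where 16.4% of all genes passed (7.86% higher and 8.57% lower). There the groups of Ghr, Prlr, Bcl6 and Stat5b did not overlap, 4 of 10 and all lower with ethanol, where 19.2% of all genes did not (9.35% higher and 9.83% lower). The 4 comparisons share groups, EtOH Vehicle for example being the control for IMC in ethanol-fed mice and the ethanol group in vehicle mice, so they are not independent of each other. As deposited, the values of the 2 diets are on separate scales, and the median gene is 1.14 times higher in ethanol-fed mice. On that scale 93.4% of the genes called with ethanol in vehicle mice and 87.8% of those in IMC mice were higher, against 53.4% and 47.8% on the common scale used here.

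**Figure D2:**
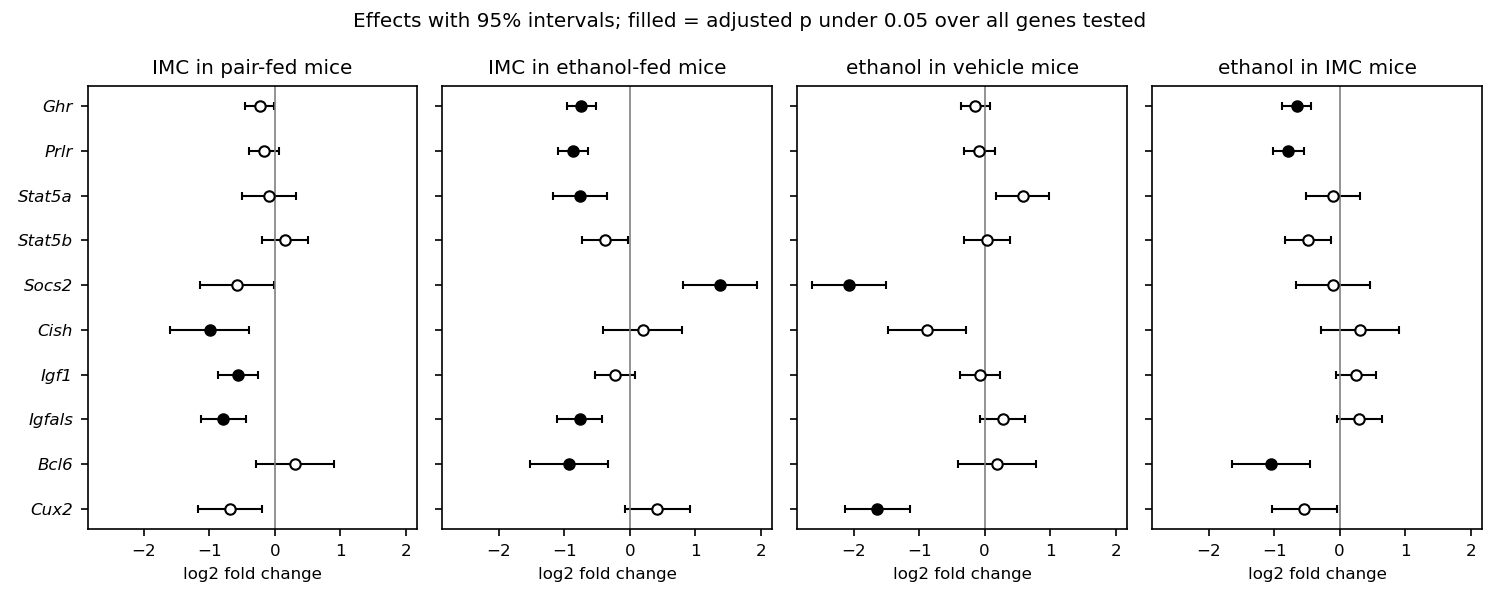
Log2 fold change (horizontal axis, points) with its 95% interval (bars) for each of the 10 genes in 4 comparisons of 4 against 4 mice. Filled points have an adjusted p under 0.05 over all 12537 genes tested. Socs2 is the only filled point right of 0, at 1.38 with IMC in ethanol-fed mice, and lies at -2.07 with ethanol in vehicle mice.

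The receptors fell with IMC in ethanol-fed mice. Ghr (ENSMUSG00000055737, chr15:3317760-3583492, minus strand) encodes the growth hormone receptor and had the highest level per kilobase of exon among the 10, at 535 normalized counts per kb over 16 libraries, in percentile 92.9 of 12532 genes with a length. The normalized counts of the 4 mice were 6661, 5276, 5925 and 5609 in Pair Vehicle and 5616, 4251, 4516 and 5695 in Pair IMC. They were 5318, 5281, 4817 and 5798 in EtOH Vehicle and 3211, 3056, 3457 and 2957 in EtOH IMC. All 4 EtOH IMC mice lay below each of the other 12 mice. From EtOH Vehicle (5303 ± 401, mean ± SD) to EtOH IMC (3170.5 ± 218) the log2 fold change was -0.74 ± 0.10 (SE), or 0.598-fold, with an adjusted p of 0.000144. With ethanol in IMC mice, from 5019.5 ± 743 in Pair IMC, Ghr fell by 0.65 ± 0.10 on the log2 scale (adjusted p = 0.000623). The summed hepatocyte markers were also lower in EtOH IMC than in Pair IMC, without overlap, and their part in the falls of Ghr, Prlr and Bcl6 with ethanol in IMC mice was not tested. In pair-fed mice the IMC and vehicle groups overlapped, with a log2 fold change of -0.23 ± 0.10 (95% interval -0.45 to -0.01) and an adjusted p of 0.173. The difference between the diets was -0.51 ± 0.15, with an adjusted p of 0.108 in limma and 0.0319 in DESeq2.

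Prlr (ENSMUSG00000005268, chr15:10177238-10349180, plus strand) encodes the prolactin receptor, a relative of the growth hormone receptor that also signals through JAK2 and STAT5 and is known as female-biased in mouse liver. Its level was 239 per kb, and Ghr stood 2.24 times above it per kb. In Pair Vehicle the counts were 4526, 3724, 4389 and 4806, and in Pair IMC 4026, 3165, 4011 and 4418. In EtOH Vehicle they were 4259.9, 4050.3, 4337 and 3807, and in EtOH IMC 2481, 2497, 2145 and 1953. As for Ghr, the 4 EtOH IMC mice were the lowest of the 16. IMC lowered Prlr in ethanol-fed mice from 4113 ± 238 to 2269 ± 266, a log2 fold change of -0.86 ± 0.11 with an adjusted p of 6.44e-05. In pair-fed mice the log2 fold change was -0.16 ± 0.11 (95% interval -0.39 to 0.07), and the adjusted p was 0.376. The difference between these effects, -0.70 ± 0.16, had an adjusted p of 0.0395. That call was not stable: with 1 library left out at a time it was kept in 5 of 16 fits, with adjusted p from 0.0111 to 0.0833. Every fit gave a lower value in ethanol-fed mice. The call was also lost without the filter (adjusted p = 0.0579) and without the trend (adjusted p = 0.0742). The libraries whose removal kept it were 10 and 16 of Pair Vehicle, 4 of Pair IMC, and 9 and 11 of EtOH IMC. With ethanol in IMC mice Prlr fell by 0.78 on the log2 scale (adjusted p = 0.000246), and with ethanol in vehicle mice the log2 fold change was -0.08 ± 0.11 (adjusted p = 0.672). For both receptors the order of group means was Pair Vehicle, EtOH Vehicle, Pair IMC and EtOH IMC, and only the last step was free of overlap.

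Of the transcription factors, Stat5a fell with IMC in ethanol-fed mice. Stat5a (ENSMUSG00000004043, chr11:100859351-100885169, plus strand) and Stat5b (ENSMUSG00000020919, chr11:100780731-100850724, minus strand) are neighbouring, closely similar genes, and reads from their shared stretches may have been divided between them in the counting. Per kb, Stat5b stood 5.93 times above Stat5a, at 169 against 28.4. The Stat5a counts were 211, 187, 202 and 148 in Pair Vehicle and 162, 178, 150.4 and 213 in Pair IMC. With ethanol they were 318, 252, 312 and 235 in EtOH Vehicle and 207, 100.8, 159 and 212 in EtOH IMC. The EtOH Vehicle mice were the highest 4 of 16, and the other 3 groups overlapped. From 279 ± 41.7 in EtOH Vehicle to 169.6 ± 51.6 in EtOH IMC the log2 fold change was -0.76 ± 0.19 (adjusted p = 0.0103). In pair-fed mice, at 187 ± 27.9 and 176 ± 27.3, it was -0.09 ± 0.19 (95% interval -0.50 to 0.32, adjusted p = 0.824). Averaged over the diets it was -0.42 ± 0.14 (adjusted p = 0.0285), a call kept in 10 of 16 fits without 1 library. It was lost without library 10 or 14 of Pair Vehicle, 2 or 6 of Pair IMC, or 1 or 5 of EtOH Vehicle, with adjusted p of up to 0.0602. Between Pair Vehicle and EtOH Vehicle the log2 fold change was 0.58 ± 0.19, with an adjusted p of 0.0611 in limma, 0.0484 in edgeR and 0.0277 in DESeq2. EtOH Vehicle is also the group with the highest stellate marker sums, and the part of these cells in the Stat5a values was not tested.

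Stat5b had wider group ranges. Its counts were 1289.5, 1066, 813 and 688 in Pair Vehicle, where the SD was 268 around a mean of 964. They were 1152, 954, 925 and 1151 in Pair IMC, 1256, 902, 979 and 776 in EtOH Vehicle and 762, 702, 849 and 673 in EtOH IMC. The lowest mean was in EtOH IMC (747 ± 77.7), but each group overlapped its neighbour in the order of means. No comparison of Stat5b passed. The closest was ethanol in IMC mice, where the 4 EtOH IMC mice lay below the 4 Pair IMC mice (1046 ± 123) with a log2 fold change of -0.48 ± 0.17 and an adjusted p of 0.0571. DESeq2 gave 0.0374 and edgeR 0.0661 there. IMC in ethanol-fed mice gave -0.37 ± 0.17 (adjusted p = 0.122), and IMC in pair-fed mice 0.15 ± 0.17 (95% interval -0.20 to 0.50, adjusted p = 0.613).

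Of the feedback inhibitors, Socs2 fell with ethanol in vehicle mice and rose with IMC in ethanol-fed mice, and Cish fell with IMC in pair-fed mice. Socs2 (ENSMUSG00000020027, chr10:95385362-95417180, minus strand) encodes a ubiquitin ligase adaptor that marks the growth hormone receptor for degradation, and is a direct STAT5 target. It had the lowest level per kb of the 10, 23.9. The 4 EtOH Vehicle mice had counts of 97.8, 64.2, 96.7 and 75.7. The EtOH IMC mice had 215, 302, 138 and 242, the Pair IMC mice 130.1, 286, 254 and 307 and the Pair Vehicle mice 416, 259, 289.8 and 467. EtOH Vehicle thus lay wholly below the other 12 mice, which overlapped from group to group. Against Pair Vehicle (358 ± 99.5) the level in EtOH Vehicle (83.6 ± 16.5) was 0.239-fold, a log2 fold change of -2.07 ± 0.27 with an adjusted p of 0.000276. IMC raised Socs2 in ethanol-fed mice to 224 ± 67.7, 2.6-fold or 1.38 ± 0.27 on the log2 scale (adjusted p = 0.00183). In pair-fed mice the effect of IMC was -0.58 ± 0.27 (95% interval -1.14 to -0.02), with an adjusted p of 0.184. Without library 2 of Pair IMC, which had 130.1, that effect was -0.30 (adjusted p = 0.477). The difference between the diets, 1.96 ± 0.38, passed with an adjusted p of 0.0193, and it passed in each of the 16 fits without 1 library (0.0113 to 0.0461). The fall with ethanol, the rise with IMC and the difference all rest on the same 4 EtOH Vehicle mice. Those mice also had the highest stellate marker sums, whose part in this result was not tested. In IMC mice ethanol gave -0.10 ± 0.27 (95% interval -0.67 to 0.46, adjusted p = 0.83).

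Cish (ENSMUSG00000032578, chr9:107296026-107302784, plus strand) encodes CIS, an inhibitor that competes with STAT5 for docking on cytokine receptors, and its printed start carries 2 motifs. Library 16 of Pair Vehicle stood out with a count of 666. The whole group had 259, 182, 289 and 666, in the order of libraries 10, 12, 14 and 16. The counts were 108, 201, 196 and 134 in Pair IMC, 161, 207, 147 and 160.4 in EtOH Vehicle and 237, 189, 179 and 169 in EtOH IMC. All neighbouring groups overlapped. IMC lowered Cish in pair-fed mice from 349 ± 216 to 159.6 ± 46.2, a log2 fold change of -0.99 ± 0.29 (adjusted p = 0.0364). Without library 16 of Pair Vehicle it was -0.63 (adjusted p = 0.0719), and the call was also lost without library 14 of Pair Vehicle or library 2, 6 or 8 of Pair IMC, with adjusted p of up to 0.105. Library 16 is the one with the highest Kupffer and lymphocyte marker sums, and bile duct and exocrine pancreas marker sums were higher in Pair Vehicle than in Pair IMC. Their part in the results in pair-fed mice was not tested. The Cish call was lost too without the filter (adjusted p = 0.0521), without the trend (0.0641) and with only the libraries compared (adjusted p = 0.111). In ethanol-fed mice IMC gave 0.20 ± 0.29 (95% interval -0.40 to 0.80, adjusted p = 0.66). With ethanol in vehicle mice the log2 fold change was -0.88 ± 0.29, with an adjusted p of 0.0535 in limma, 0.0301 in edgeR and 0.00616 in DESeq2.

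**Figure D3:**
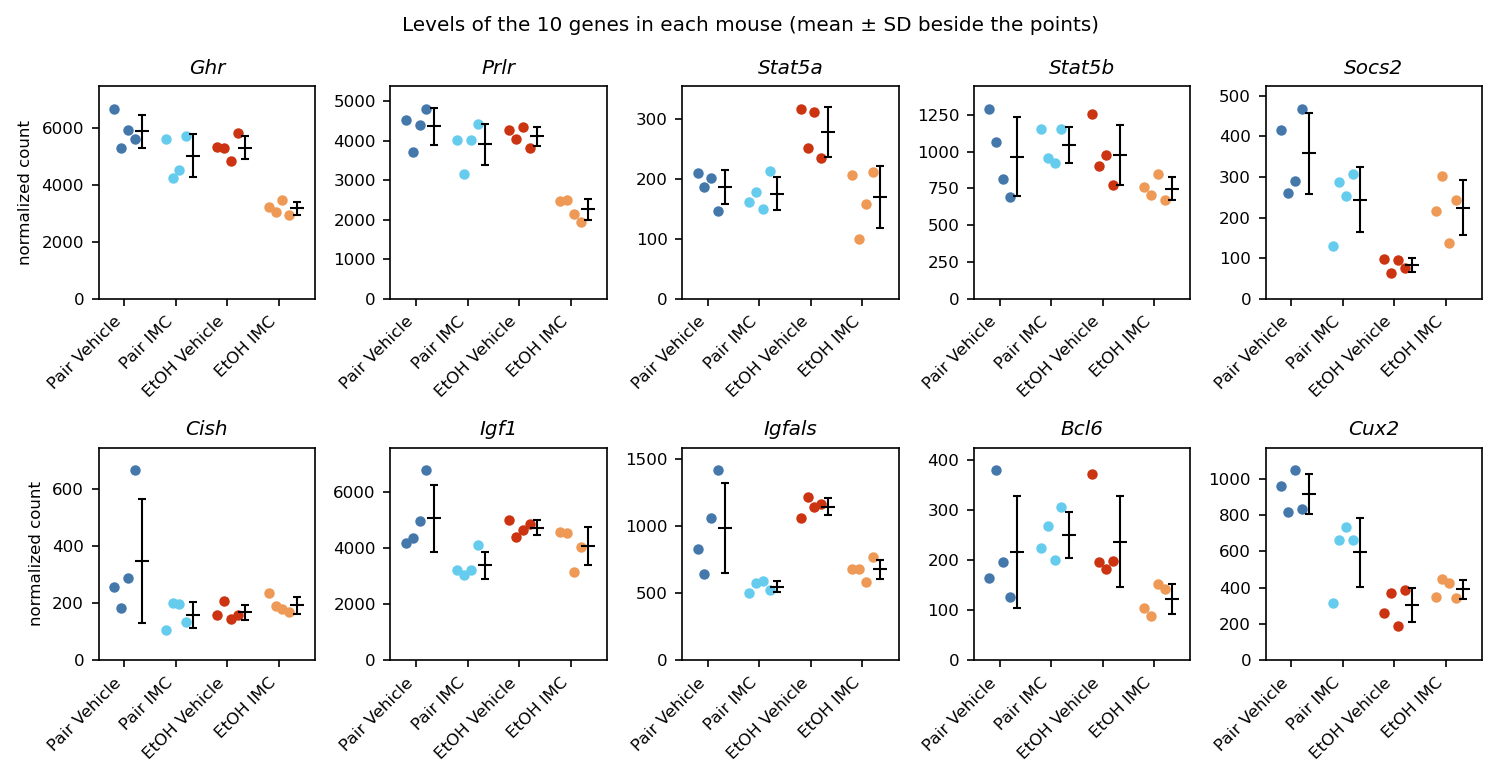
Normalized count (vertical axes, from 0, a separate scale for each gene) of the 10 genes in each mouse, by group, with the mean and SD of the 4 mice in black beside the points. EtOH IMC lies lowest for Ghr and Prlr, EtOH Vehicle lowest for Socs2 and highest for Stat5a, and 1 Pair Vehicle mouse reaches 666 for Cish.

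The secreted targets fell with IMC in pair-fed mice, and Igfals in both diets. Igf1 (ENSMUSG00000020053, chr10:87858265-87937042, plus strand) encodes insulin-like growth factor 1, the main circulating mediator of growth hormone, and had a level of 436 per kb. Its counts were 4171, 4369, 4957 and 6776 in Pair Vehicle and 3231, 3032, 3225 and 4100.5 in Pair IMC. They were 4991, 4401, 4659 and 4867 in EtOH Vehicle and 4561, 4555, 3143 and 4033 in EtOH IMC. The Pair IMC mice were all below the Pair Vehicle mice, and all other neighbouring groups overlapped. IMC lowered Igf1 in pair-fed mice from 5068 ± 1186 to 3397 ± 478, 0.678-fold, with a log2 fold change of -0.56 ± 0.14 and an adjusted p of 0.0224. This call was lost without library 16 of Pair Vehicle (-0.41, adjusted p = 0.0544) or library 2, 4 or 6 of Pair IMC, with adjusted p of up to 0.0757. It was also lost with only the libraries compared (adjusted p = 0.0557). In ethanol-fed mice the log2 fold change was -0.23 ± 0.14 (95% interval -0.53 to 0.07, adjusted p = 0.272). The 2 effects were not shown to differ, with a difference of 0.33 ± 0.20 and an adjusted p of 0.463. Averaged over both diets Igf1 fell, at -0.39 ± 0.10 (adjusted p = 0.00822). Ethanol gave -0.07 ± 0.14 in vehicle mice and 0.26 ± 0.14 in IMC mice, with adjusted p of 0.776 and 0.244.

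Igfals (ENSMUSG00000046070, chr17:24865997-24882010, plus strand) encodes the acid labile subunit, which holds IGF1 and its binding protein in a large complex in blood. Per kb its level was 265. Pair Vehicle had counts of 831, 642, 1059.6 and 1417 and Pair IMC 504, 574, 591 and 528. EtOH Vehicle had 1062, 1216, 1142 and 1169 and EtOH IMC 682, 679, 588 and 768. In each diet every IMC mouse was below every vehicle mouse. The log2 fold change was -0.79 ± 0.16 in pair-fed mice (from 988 ± 334 to 549 ± 40.3, adjusted p = 0.00699). In ethanol-fed mice it was -0.76 ± 0.16 (from 1147 ± 64.4 to 679 ± 73.6, adjusted p = 0.00363). The difference between the diets was 0.03 ± 0.23 (95% interval -0.46 to 0.51, adjusted p = 0.972). Of the 10 genes, Igfals alone passed in both diets, and it did so in all 16 fits without 1 library and under all 10 other settings tried for each diet. Without library 16 of Pair Vehicle the value in pair-fed mice was -0.59 (adjusted p = 0.012). Ethanol gave 0.28 ± 0.16 in vehicle mice and 0.30 ± 0.16 in IMC mice, with adjusted p of 0.285 and 0.226.

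Of the repressors, Bcl6 fell with IMC in ethanol-fed mice, and Cux2 fell with ethanol in vehicle mice. Bcl6 (ENSMUSG00000022508, chr16:23965052-23988852, minus strand) encodes a transcriptional repressor that binds many of the same sites as STAT5 and is male-biased in mouse liver. Its level was 30.8 per kb. The counts were 164, 379, 196 and 126 in Pair Vehicle and 225, 268, 201 and 305 in Pair IMC. They were 371, 196, 182 and 198 in EtOH Vehicle and 105, 88.1, 151 and 143 in EtOH IMC. EtOH IMC lay below all Pair IMC and EtOH Vehicle mice and overlapped Pair Vehicle, whose lowest mouse had 126. With IMC in ethanol-fed mice the mean of Bcl6 dropped from 237 ± 90.0 to 122 ± 30.2, with a log2 fold change of -0.92 ± 0.28 (adjusted p = 0.0277). Without library 1 of EtOH Vehicle, which had 371, it was -0.68 (adjusted p = 0.0989), and the call was also lost without library 9 or 11 of EtOH IMC (adjusted p = 0.0628 and 0.0833). With ethanol in IMC mice Bcl6 fell from 249 ± 46.3, by 1.04 ± 0.28 on the log2 scale (adjusted p = 0.0183), and without library 8 of Pair IMC the adjusted p was 0.0543. In pair-fed mice the effect of IMC was 0.31 ± 0.28 (95% interval -0.28 to 0.91, adjusted p = 0.524), and the difference between diets was -1.24 ± 0.40 (adjusted p = 0.146).

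Cux2 (ENSMUSG00000042589, chr5:121856366-122050102, minus strand) encodes a homeodomain repressor found in female and hardly in male mouse liver, where it holds down male-biased genes. At 54.7 per kb it was in percentile 56.5. The counts were 963, 817, 1047 and 832 in Pair Vehicle and 316, 661, 737 and 664 in Pair IMC. With ethanol they were 260.1, 371, 192 and 388 in EtOH Vehicle and 351, 446, 428 and 344 in EtOH IMC. The Pair Vehicle mice were the highest 4 of 16, and the other groups overlapped their neighbours. Pair Vehicle also had the highest exocrine pancreas marker sums, whose part in the Cux2 values was not tested. Ethanol lowered Cux2 in vehicle mice from 915 ± 109.7 to 303 ± 93.4, 0.321-fold or -1.64 ± 0.23 on the log2 scale (adjusted p = 0.000573). In IMC mice ethanol gave -0.54 ± 0.23 (adjusted p = 0.129). Library 2 of Pair IMC, at 316, lay far below the other 3 of its group, and without it the value was -0.81 (adjusted p = 0.0113). IMC gave -0.69 ± 0.23 in pair-fed mice, without overlap but with an adjusted p of 0.0731. Without library 2 of Pair IMC this effect was -0.41 (adjusted p = 0.205). In ethanol-fed mice IMC gave 0.42 ± 0.23 (adjusted p = 0.216). The difference between the diets was 1.10 ± 0.33 (adjusted p = 0.117).

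Over the 16 libraries the levels of Ghr and Prlr varied together most closely among the pairs of the 10 genes, with a Pearson correlation of log2 values of 0.93, or 0.43 after the group means were taken out. Igf1 and Igfals followed with 0.80 (0.62 within groups), Socs2 and Cux2 with 0.75 (0.24), and Stat5b and Bcl6 with 0.72 (0.52). The lowest was -0.56 for Stat5a and Socs2 (-0.02 within groups). Within groups alone the closest pair was Cish and Igfals (0.83, against 0.52 over the 16 libraries) and the most opposed Stat5b and Igfals (-0.76, against -0.26). The libraries share the design's groups and their scaling, so these values describe the pattern and carry no test. The genes most like each member over the same libraries were 1500017E21Rik (0.96) and Rtn4 (0.95) for Ghr, Slc25a13 and Mospd2 (both 0.95) for Prlr, and Ggcx and Dnmt3b (both 0.88) for Stat5a. For Stat5b they were Ubap2l (0.88) and Ccnh (0.82), for Socs2 Dvl2 (0.86) and Maf1 (0.85), and for Cish Polr2m (0.78) and Gm561 (0.76). For Igf1 they were Keg1 and Nfe2 (both 0.88), for Igfals Akr1c20 (0.93) and Mroh2a (0.90), for Bcl6 Baiap2 (0.79) and Tead3 (0.77), and for Cux2 Phb2 (0.92) and Atad3a (0.90). After the group means were taken out, the values for these genes ran from 0.23 (Socs2 and Maf1) to 0.89 (Stat5b and Ccnh).

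Most genes of the wider pathway did not pass. Of 34 further genes of growth hormone receptor signalling and the IGF system 32 were tested, and IMC called 1 higher and 1 lower in pair-fed mice, and 1 higher and 5 lower in ethanol-fed mice. Over all genes 9.48% and 21.5% were called, and neither count stood above that share. The median log2 fold change was -0.03 and 0.01. Jak2, the receptor's kinase, passed in none of the 4 single comparisons, with 0.11 ± 0.09 and 0.07 ± 0.09 for IMC in pair-fed and ethanol-fed mice. Ptpn11, which encodes the phosphatase SHP2, rose with IMC in both diets (0.43 ± 0.09 and 0.34 ± 0.09). Igfbp3, the binding protein that forms the complex with IGF1 and the Igfals product, fell with IMC in ethanol-fed mice from 100.1 ± 22.7 to 48.6 ± 9.5, with a log2 fold change of -1.02 ± 0.28 (adjusted p = 0.017). It also fell with ethanol in IMC mice (-1.48 ± 0.28). Igfbp4 (-0.33 ± 0.11), Igfbp7 (-0.45 ± 0.12) and Sirpa (-0.68 ± 0.21), which encodes a membrane glycoprotein bound by SHP2, fell with IMC in ethanol-fed mice. The summed stellate markers were also lower there with IMC, without overlap (4069 to 4776 in EtOH Vehicle, 2726 to 3639 in EtOH IMC). Their part in the falls of Igfbp3, Igfbp4, Igfbp7 and Sirpa was not tested.

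With ethanol, 1 of the 32 rose and 1 fell in vehicle mice, where 11.9% of all genes were called, and 3 rose and 3 fell in IMC mice, where 16.4% were. Socs5, another SOCS family member, rose in both (0.58 ± 0.14 in vehicle and 0.48 ± 0.14 in IMC mice). Irs2, an adaptor of insulin and growth hormone signalling, fell in vehicle mice (-0.96 ± 0.28). In IMC mice Igf2r, which clears IGF2, rose by 0.31, and Sh2b1 and Igfbp2 fell, with -0.34 ± 0.08 and -0.68 ± 0.21. Among 16 tested liver transcription factors that act beside STAT5, of 17 listed, IMC called 2 higher and 2 lower in pair-fed mice (9.48% of all genes) and 2 higher and 1 lower in ethanol-fed mice (21.5% of all genes). Hnf4a, a nuclear receptor central to the hepatocyte programme, rose in both diets, from 8644 ± 1234 to 14188 ± 2333 (0.71 ± 0.13) and from 8036 ± 1062 to 12314 ± 842 (0.62 ± 0.13). Foxa3 rose in both as well (0.36 ± 0.11 and 0.71 ± 0.11), and Nr3c1, the glucocorticoid receptor, fell in both (-0.36 ± 0.10 and -0.30 ± 0.10). Foxa2 fell in pair-fed mice (-0.74 ± 0.21). Ethanol, which called 11.9% of all genes in vehicle and 16.4% in IMC mice, called 3 lower in vehicle mice, Foxa3 (-0.77 ± 0.11), Trim24 (-0.38 ± 0.10) and Tox (-0.69 ± 0.17). In IMC mice it called 2 higher and 3 lower, among them Onecut1 (1.23 ± 0.34) and Foxa2 (0.81 ± 0.21), which rose, and Foxa3 (-0.42 ± 0.11) and Tox (-0.64 ± 0.17), which fell.

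Growth hormone and STAT5 also set the sex-biased genes of the liver, and the female-biased ones that passed with IMC were all lower. Of 17 female-biased genes tested, IMC called 5 lower and none higher in pair-fed mice (median log2 fold change -0.61), and 11 lower and none higher in ethanol-fed mice (median -1.17). The share called lower among all genes tested was 5.17% and 11.1%. The list was chosen with earlier results of these data known, so these counts are not independent support. Cyp3a16, a cytochrome P450 of female liver, had 3975 ± 1066 in Pair Vehicle and 305 ± 143 in Pair IMC, with an adjusted p of 0.00909. It had 2931 ± 1139.8 in EtOH Vehicle and 22.0 ± 22.8 in EtOH IMC, with an adjusted p of 8.7e-06. Cyp2b13 fell with IMC in both diets, with -0.86 ± 0.22 in pair-fed and -1.78 ± 0.22 in ethanol-fed mice (adjusted p = 0.0199 and 3.93e-05). Cyp3a41b went from 204 ± 125 to 7.75 ± 7.87 in ethanol-fed mice (adjusted p = 0.000119). Cyp2c40 fell in ethanol-fed mice (-1.31 ± 0.19), and was the 1 female-biased gene for which the diets differed (-1.12 ± 0.26, adjusted p = 0.0493). Genes of these Cyp families are closely similar and may share reads. With ethanol, 3 rose and 3 fell in vehicle mice, where 6.33% of all genes were called higher and 5.54% lower. In IMC mice 1 rose and 9 fell, where 7.86% of all genes were called higher and 8.57% lower.

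Male-biased genes had calls in both directions. Of 21 found by symbol, 13 passed the filter, and IMC called 2 higher and 2 lower in pair-fed mice and 2 higher and 4 lower in ethanol-fed mice (medians -0.19 and -0.13), where 9.48% and 21.5% of all genes were called. Mup3, a major urinary protein gene, fell in ethanol-fed mice from 9718 ± 1203 to 1585 ± 543 (-2.67 ± 0.25, adjusted p = 4.39e-06), and the effect differed from that in pair-fed mice by -2.02 ± 0.36 (adjusted p = 0.0128). Mup20, of the same family, rose, from 262 ± 41.4 to 963 ± 189 (1.86 ± 0.18, adjusted p = 6.18e-06). Gstp1, a glutathione transferase, rose from 2357 ± 605 to 8537 ± 2019 (1.86 ± 0.18, adjusted p = 5.91e-06). Susd4 was close to the detection floor, at 11.2 ± 7.25 and 1.56 ± 1.26 (adjusted p = 0.00427). Ethanol called 2 higher and 1 lower in vehicle mice and 4 higher and 3 lower in IMC mice, where 11.9% and 16.4% of all genes were called. Genes of the Mup cluster are highly alike, and reads may have been divided among them.

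**Figure D4:**
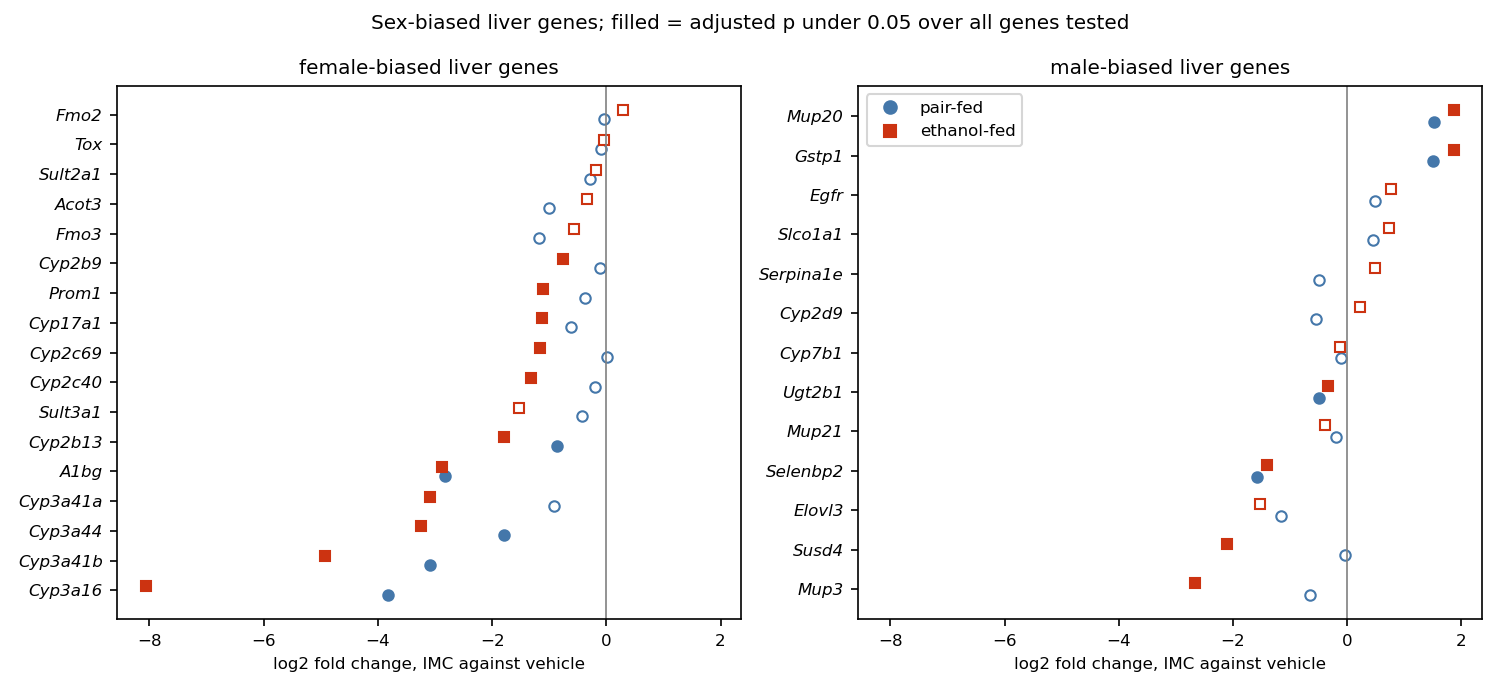
Log2 fold change of IMC against vehicle (horizontal axis) for the female-biased (left) and male-biased (right) liver genes tested, in pair-fed (blue circles) and ethanol-fed (red squares) mice, 4 against 4 each. Filled symbols have an adjusted p under 0.05 over all 12537 genes. Filled symbols of female-biased genes all lie left of 0, down to -8.07 for Cyp3a16, and those of male-biased genes lie on both sides.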

How the data were processed

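Liver RNA from 16 mice was sequenced with a directional mRNA kit. Per the labels the reads were paired-end, and per the methods single-end. The authors used Trim Galore for trimming, FastQC for quality, STAR for alignment to mm10 (UCSC transcript annotations) and edgeR for upper quantile normalization; the counting tool and its strand setting are not given in the sources used here. The deposited signal values are normalized counts, meaning whole reads on genes over a library's size factor: 100% of them were whole multiples, to 0.01 of a read, of what 1 read is worth (0.906 to 1.18). The 27212 rows hold 24082 Ensembl genes, and the 430 listed under several symbols carried identical values and were used once. All 16 libraries were rescaled by 1 median ratio (divisors 0.934 to 1.07), since each diet had been deposited on its own scale. The divisors were nearly equal within a diet, at 0.934 to 0.939 in pair-fed and 1.066 to 1.072 in ethanol-fed mice. Values scaled by median ratios within each diet would look so, whereas the methods name upper quantile normalization. Which of them was applied to the deposited values is not stated. Replicates of a group were compared (24 pairs, chi-square per gene 5.64 to 44.4), and no library duplicated another of its group. Libraries of different groups were not compared in this way. A count of 0 allows up to 3 reads, for counting error alone.

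A gene was tested where its value reached 10 in 4 or more libraries. The test was limma 3.58.1 (R 4.3.3) on log2(value + 1): group means, a spread shared by all 16 libraries, a trend with level, two-sided p, and Benjamini-Hochberg adjustment over 12537 genes at 0.05. Fold changes are on that scale and understate low genes. Each library is 1 mouse by the study's text, and p-values measure the spread between these mice. A legend of the study counts cages for diet intake, and the cage of each sequenced mouse was not at hand. Whether mice of a group shared a cage is therefore unknown, and the tests treat them as independent. Alternatives were pseudocounts of 0.1 and 5, no filter, deposited values, quantile normalization, no trend, only the compared libraries, edgeR 4.0.16 (TMM or upper quartile) or DESeq2 1.42.0 run on recovered reads, and leaving out single libraries. In library 15 of EtOH IMC 1 read is worth 1.01, which hardly tells reads from normalized values, and edgeR was also run without it, a choice made after seeing the data. The tests were tried on simulated counts first.

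The 10 genes and the lists were chosen with earlier results of these data known. Named were all 10, the genes of the pathway and transcription factor lists with an adjusted p under 0.05 in a single-diet IMC or an ethanol comparison, the 4 of each sex-biased list with the smallest p for IMC in ethanol-fed mice, and the 2 genes most correlated with each member. Jak2 and single markers were added after their values were seen. By-name results of 2 listed genes that met this rule are not reported here, and both stay in the counts. Promoter stretches were to be printed for Cish, Socs2, Igf1 and up to 2 others holding the motif. Socs2 was missing from the promoter table, Igf1 had no match, and the 2 others with more than 1 match were taken. Positions are from GENCODE vM21 on GRCm38, which held 24026 of the genes, and lengths for values per kb are exon unions. Plots were made with Python 3.11.15 and matplotlib 3.10.9.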

Additional observations from a re-analysis of the deposited data

Results flagged for a closer look

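Bcl6 in library 1 of EtOH Vehicle had a normalized count of 371, far above the other 3 of its group at 182 to 198, with a Dixon ratio of 0.919 among 40 groups of 4 looked at, of which chance would pick about 1 in 20. The same library had a summed level of the 7 lymphocyte markers of 52.9, against 22.2 to 28.0 in the others of its group, whose part in the Bcl6 value was not tested.

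For Prlr the effect of IMC differed between the diets by -0.70 on the log2 scale in limma (adjusted p = 0.0395), with the lower values in ethanol-fed mice. That call was kept in only 5 of 16 fits without 1 library, and was lost without the filter or without the trend. For Socs2 the effect differed by 1.96 (adjusted p = 0.0193), higher with IMC in ethanol-fed mice in 4 of 4 mice against all 4 vehicle mice. The Socs2 call was kept in all 16 fits. In both contrasts low and high library numbers cannot be told apart from the difference between the diets.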

How the results depend on the processing

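No paired analysis was possible because each library has its own number and no number is shared between groups. With 1 library left out at a time, the number of the 10 genes called was 1 to 3 for IMC in pair-fed mice (3 with all libraries), 5 to 6 for IMC in ethanol-fed mice (6), 1 to 2 for the difference (2), 4 to 6 for the average over diets (5), 2 to 3 for ethanol in vehicle mice (2) and 2 to 4 for ethanol in IMC mice (3). IMC in pair-fed mice had 1 call with only the libraries compared, where fewer libraries estimate the spread. The difference had 1 call without the filter, without the trend and in edgeR without library 15. Ethanol in vehicle mice had 4 calls with the values as deposited, in edgeR with either normalization, in edgeR without library 15 and in DESeq2. Ethanol in IMC mice had 5 calls with the values as deposited and in DESeq2. For these counts the cause was not tested.

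Over all genes the calls for IMC in pair-fed mice numbered 1189, or 691 with only the libraries compared, and 45.5% were higher, or 35.5% with upper-quartile normalization. The difference had 139, 80 without the filter, 82 without the trend, 338 in DESeq2 and 72 in edgeR without library 15. Ethanol in vehicle mice had 1488, or 3000 as deposited. Ethanol in IMC mice had 2060, or 3624 as deposited and 1352 in edgeR without library 15. Leaving out 1 library moved these counts by over 1.5 times for IMC in pair-fed mice (537 without library 4 and 543 without library 6 of Pair IMC), ethanol in vehicle mice (974 without library 14 of Pair Vehicle and 803 without library 5 of EtOH Vehicle) and ethanol in IMC mice (1368 without library 15 of EtOH IMC). For the difference it left 54 to 84 calls without library 12 or 14 of Pair Vehicle, 2, 6 or 8 of Pair IMC, any of EtOH Vehicle, or 13 or 15 of EtOH IMC.

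As deposited, where the diets are on separate scales, uncalled log2 fold changes turned positive for ethanol in vehicle mice in Ghr (0.046), Prlr (0.11) and Igf1 (0.12), and for ethanol in IMC mice in Stat5a (0.094) and Socs2 (0.087). Uncalled values also crossed 0 with 1 library left out, with these ranges over the 16 fits: the difference for Igfals (-0.17 to 0.21), the average for Cux2 (-0.23 to 0.0064), ethanol in vehicle mice for Stat5b (-0.11 to 0.19), Igf1 (-0.16 to 0.074) and Bcl6 (-0.046 to 0.50), and ethanol in IMC mice for Socs2 (-0.38 to 0.11) and Stat5a (-0.22 to 0.13). No called value changed sign in any fit run. With 4 mice per group an exact permutation test of a single comparison cannot go below 0.0286. Where a gene was not called, differences inside its printed interval are not excluded, and a missing call does not show that an effect was absent.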
